A study of Mus musculus with 4 samples.

Results

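Imprinted genes are transcribed mainly or only from the chromosome inherited from 1 parent, and many of them act on growth. The 10 genes described here are imprinted growth genes outside the cluster that holds Cdkn1c, listed by name: Igf2, Plagl1, Dlk1, Peg3, Mest, Peg10 and Ndn, which are expressed from the paternal allele, and Igf2r, Grb10 and Gnas, which are assigned to the maternal allele. They were taken from 20701 gene symbols, all 10 passed the filter on low counts, and they were read out of a test of 12715 genes. Transcript levels were measured by poly(A) RNA-Seq in cardiac progenitor cells (CPCs) obtained from E14 Tg(Nkx2-5-EmGFP) mouse embryonic stem cells (ESCs), whose green fluorescence reports the cardiac transcription factor gene Nkx2-5. Cells were sorted for GFP at day 5 of differentiation. There were 2 control libraries and 2 Isl1_KO libraries. The Isl1_KO cells carried the genotype Isl1-/-, which had been made in the same line by CRISPR/Cas9 with a pair of guide RNAs, and the libraries of each group came from different clones, so that a value of 1 library is that of 1 clone. All groups carried the reporter, and ESCs of all groups had been kept on mouse embryonic fibroblast feeders. The comparison asks how the level of each gene differed between control and Isl1_KO CPCs, with each Isl1_KO library also taken apart. The parental alleles are background knowledge, since the counts do not separate alleles.

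At an imprinted domain, DNA methylation set in the egg or the sperm marks a control region, and this mark is kept through the later cell divisions of the embryo so that neighbouring genes stay silent on 1 chromosome. Paternally expressed genes such as Igf2 tend to promote fetal growth, whereas maternally expressed genes such as Igf2r and Grb10 tend to restrain it. In the embryo, mesoderm and its derivatives, the heart included, are among the tissues in which many of these genes are abundant, and several of them fall together after birth.

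The libraries held 8821517 and 9147425 counts in control and 13186109 and 11388333 in Isl1_KO, over 1 transcript entry per gene. Isl1 was at 35.1 and 35.7 CPM, which are counts scaled to the library size, in control and at 1.31 and 2.08 CPM in Isl1_KO 1 and 2, so the levels followed the labels. The control libraries lay close together, with a biological coefficient of variation of 1.29%, against 16.3% between the Isl1_KO libraries and 11.1% in the joint model. The extraction protocol in the labels names different clones, and the labels do not say that the libraries were separate cultures in any other way, so the p-values measure the spread between these libraries. The sequenced RNA came from all sorted cells together, and fewer cells of a type and less RNA per cell cannot be told apart.

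Promoter sequences of 3 members are shown, since they stand for the patterns described below. Plagl1 was the member that passed the test, and Dlk1 differed most between the Isl1_KO libraries. Peg3 was lower in Isl1_KO 1 than in Isl1_KO 2, at 82.4% and 96.8% of the control mean. Each is the 300 bases from 250 before to 50 after a RefSeq transcript start on GRCm38.p6, read 5′ to 3′ on the strand of the gene, at chr10:13090582-13090881 (plus strand) for Plagl1, chr12:109452573-109452872 (plus strand) for Dlk1 and chr7:6730370-6730669 (minus strand) for Peg3. Capitals mark TGCCGC, the motif of ZFP57, a zinc finger protein that protects imprints, or GGGGCCCC, the motif bound by PLAGL1 itself, each searched on both strands.

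Plagl1: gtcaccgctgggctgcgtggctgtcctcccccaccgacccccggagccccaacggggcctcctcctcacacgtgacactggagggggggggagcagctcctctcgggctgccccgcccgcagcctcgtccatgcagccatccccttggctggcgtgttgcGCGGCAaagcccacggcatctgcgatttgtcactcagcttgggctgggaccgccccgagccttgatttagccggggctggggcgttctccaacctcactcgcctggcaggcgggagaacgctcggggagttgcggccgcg

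Dlk1: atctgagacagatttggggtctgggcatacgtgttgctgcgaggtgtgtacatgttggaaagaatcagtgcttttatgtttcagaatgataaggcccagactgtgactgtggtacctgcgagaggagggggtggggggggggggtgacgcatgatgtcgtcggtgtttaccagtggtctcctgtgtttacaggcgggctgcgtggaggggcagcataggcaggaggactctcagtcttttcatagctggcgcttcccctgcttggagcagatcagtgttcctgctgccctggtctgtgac

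Peg3: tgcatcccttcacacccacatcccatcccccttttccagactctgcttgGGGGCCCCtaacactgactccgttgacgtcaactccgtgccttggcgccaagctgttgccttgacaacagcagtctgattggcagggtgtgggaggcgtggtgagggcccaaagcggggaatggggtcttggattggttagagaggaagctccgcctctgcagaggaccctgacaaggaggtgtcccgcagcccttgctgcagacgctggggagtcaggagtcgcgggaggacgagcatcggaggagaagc

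The Plagl1 promoter held 26 CG dinucleotides, Peg3 held 13 and Dlk1 held 9, and the median over 32851 promoters of this length was 7. As many as in Plagl1 were found in 16.9% of all promoters. RefSeq promoters were matched for 9 of the 10 members (18 starts in all), with 2 to 45 CG dinucleotides and a median of 16.5. The motif TGCCGC was found in promoters of 4 members (Igf2, Plagl1, Mest and Grb10). It was found in 5 of the 18 windows and in 11.6% of all promoters. These include Mest windows starting at 30737800 and 30737803, which share nearly all bases and are not separate sequences. The motif holds a CG, and CG dinucleotides were more frequent in the member windows (median 16.5 against 7). A higher frequency of the motif in members was not tested. GGGGCCCC was found in 1 of the 18 windows, that of Peg3, and in 1.08% of all promoters. The searched motifs do not overlap in these 3 sequences, and a match of letters is a description of the sequence only.

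All 10 members had a log2 fold change below 0 in Isl1_KO against control, while 50.4% of all tested genes did. In 8 of the 10 both Isl1_KO libraries lay below both control libraries, against 29% of all tested genes, and the groups overlapped for Mest and Peg10. Only Plagl1, 1 of the 10, passed the threshold of 0.05 on the adjusted p (from edgeR wherever no other tool is named), which 2.45% of all tested genes passed in either direction and 1.94% passed with a lower level. An unadjusted p under 0.05 with a lower level was reached by 6 members (Plagl1, Igf2r, Grb10, Ndn, Dlk1 and Igf2) and by 12.2% of all tested genes. With the criteria of the study, an absolute log2 fold change over 0.58 and an unadjusted DESeq2 p under 0.05, 5 members were lower (Plagl1, Dlk1, Igf2r, Ndn and Grb10), as were 4.57% of 16855 genes. The median log2 fold change was -0.66 over the 10 members and -0.0027 over all tested genes. The count of 1 member became 0 without control 1 and 0 without control 2, where 0.207% and 0.221% of all tested genes passed. It became 8 without Isl1_KO 1 and 8 without Isl1_KO 2, where 49.2% and 32.5% of all tested genes passed and the lone Isl1_KO library is assumed to vary as little as the control pair.

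**Figure D1:**
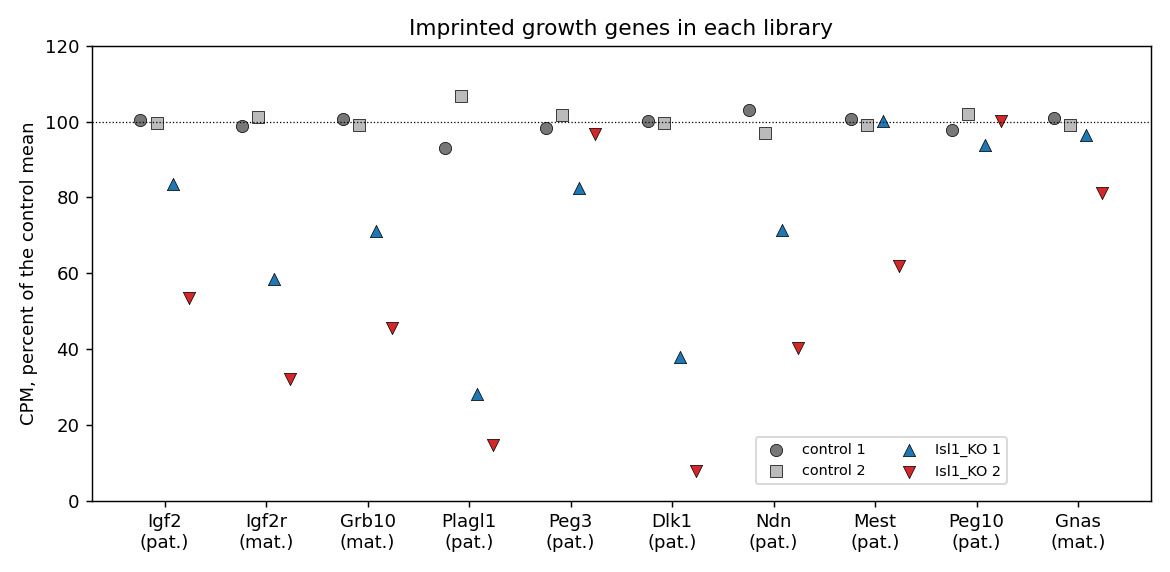
Each point is the CPM of 1 library as percent of the mean of the control libraries (vertical axis, linear) for each of the 10 genes (horizontal axis, pat. and mat. for the expressed parental allele). Control libraries sit near 100 for every gene, Isl1_KO 2 lies lowest for 8 genes, down to 7.79% for Dlk1, and the groups overlap for Mest and Peg10.

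Among the growth factor genes, Igf2 encodes the fetal insulin-like growth factor II. Its entry (chromosome 7, 149836673 to 149852721, minus strand; gene positions are those of mm9) was at 12968 and 12873 CPM in control, 10797 CPM in Isl1_KO 1 and 6906 CPM in Isl1_KO 2. Both Isl1_KO libraries were lower than both control libraries, at 83.6% and 53.5% of the control mean. The log2 ratio to control was -0.55 ± 0.211 (SE, adjusted p = 0.210), so the difference did not pass the test. The 5 transcript entries of Igf2 share reads and gave log2 ratios from -0.55 to -0.53.

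Igf2r, the receptor that takes up IGF2 and delivers it to lysosomes (chromosome 17, 12875272 to 12962530), was at 2389 and 2444 CPM in control and at 1415.5 and 774 CPM in Isl1_KO 1 and 2. The groups did not overlap, and Isl1_KO 2 was at 32.0% of the control mean. The log2 ratio to control was -1.14 ± 0.279 (SE, adjusted p = 0.106). Grb10 (chromosome 11, 11830511 to 11938686) encodes an adaptor that binds the insulin and IGF receptors and dampens their signal. It was at 2428 and 2388 CPM in control and at 1712 and 1094 CPM in Isl1_KO 1 and 2. Again both Isl1_KO clones lay below control, the second one further, with a log2 ratio to control of -0.78 ± 0.211 (SE, adjusted p = 0.124). In DESeq2 the adjusted p of Grb10 was 0.00353 and that of Igf2r was 0.108.

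Plagl1 (also called Zac1; chromosome 10, 12810497 to 12851500) encodes a zinc finger transcription factor that regulates other imprinted genes. It was a low-level gene, with 63 and 75 counts in control and 28 and 13 counts in the deeper Isl1_KO libraries, or 7.15 and 8.21 CPM against 2.15 and 1.13 CPM. The mean in control was 7.68 ± 0.746 and fell in Isl1_KO to 1.64 ± 0.724 CPM (mean and SD of 2 libraries per group). This was a log2 ratio to control of -2.20 ± 0.332 (SE, adjusted p = 0.0462). The call was close to the threshold. The adjusted p was 0.0544 in limma, 0.391 without control 1 and 0.434 without control 2, and it was 0.000871 in DESeq2. The 3 tested genes whose centred log2 levels over the 4 libraries lay nearest to those of Plagl1 were Mtus2, Col9a1 and Alcam, at Euclidean distances of 0.172, 0.174 and 0.182, and their log2 fold changes were -2.25, -2.10 and -1.99.

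Peg3 (chromosome 7, 6656603 to 6683132), which encodes a large zinc finger protein, was higher in the second Isl1_KO clone than in the first. It was at 2075 and 2149 CPM in control, 1740.4 CPM in Isl1_KO 1 and 2045 CPM in Isl1_KO 2. Here Isl1_KO 1 was the lower library, at 82.4% of the control mean, and Isl1_KO 2 lay just below the lower control library, at 96.8%. The log2 ratio to control was -0.16 ± 0.0981 (SE, adjusted p = 0.387).

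Dlk1 (chromosome 12, 110691033 to 110701546) encodes a transmembrane protein with EGF repeats related to Notch ligands, which marks many immature mesodermal cells. It was at 313 and 311 CPM in control, 118 CPM in Isl1_KO 1 and 24.3 CPM in Isl1_KO 2. The Isl1_KO libraries were thus at 37.9% and 7.79% of the control mean, and they differed from each other more than those of any other member. The log2 ratio to control was -2.12 ± 0.669 (SE, adjusted p = 0.157). All 5 transcript entries of Dlk1 gave log2 ratios between -2.16 and -2.13. Ndn, necdin (chromosome 7, 69493163 to 69494814), is a MAGE family protein that restrains the cell cycle in differentiating cells. It was at 160 and 150 CPM in control and at 110 and 62.4 CPM in Isl1_KO 1 and 2, without overlap. Its log2 ratio to control was -0.84 ± 0.261 (SE, adjusted p = 0.153, DESeq2 adjusted p = 0.0187).

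The remaining members lay close to control in at least 1 clone. Mest (chromosome 6, 30673547 to 30698457), a gene for a hydrolase-like protein of mesoderm, was at 2761 and 2716 CPM in control, 2744 CPM in Isl1_KO 1 and 1697.5 CPM in Isl1_KO 2. Only Isl1_KO 2 lay below control, at 62.0% of its mean, and the log2 ratio to control was -0.30 ± 0.224 (SE, adjusted p = 0.462). Exons of Mest and Copg2 overlap on opposite strands over 904 bases and reads of both strands were counted together. The CPM of Copg2 was 45.3% and 45.1% of that of Mest in control and 45.7% and 47.7% in Isl1_KO, and how many reads they share was not tested. Peg10 (chromosome 6, 4697306 to 4710514), a gene derived from a retrotransposon and needed for the placenta, was at 5044 and 5258 CPM in control and at 4840.4 and 5157 CPM in Isl1_KO. Its groups overlapped and its log2 ratio to control was -0.043 ± 0.0756 (SE, adjusted p = 0.771).

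Gnas (chromosome 2, 174109821 to 174172245) encodes the alpha subunit of the stimulatory G protein and, from other promoters of the same locus, transcripts that are each expressed from 1 parental allele, while the transcript of the alpha subunit itself is read from both alleles in most tissues. It was at 1789 and 1754 CPM in control and at 1711 and 1438 CPM in Isl1_KO 1 and 2. Both Isl1_KO libraries were a little lower, and the log2 ratio to control was -0.17 ± 0.101 (SE, adjusted p = 0.372). The 11 entries of Gnas, which share reads, had log2 ratios from -0.17 to -0.16. Exons of Gnas overlap those of AF085738 over 1469 bases and those of Nespas over 988 bases on the other strand, so the values may hold reads of these as well.

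Grouped by parental allele, the 7 paternally expressed members had a median log2 fold change of -0.55. The 3 members assigned to the maternal allele had one of -0.78. These 3 include Gnas (-0.17), whose alpha subunit transcript is read from both alleles in most tissues, and the counts do not separate alleles. Against control, the paternal median was -0.28 in Isl1_KO 1 and -0.90 in Isl1_KO 2, and the maternal median was -0.49 and -1.14. In both classes all members had negative log2 fold changes, as did 50.4% of all tested genes, and 5 of 7 and 3 of 3 lay below control without overlap, as did 29% of all tested genes. Igf2, a paternally expressed gene, and Igf2r and Grb10, which are maternal, were lower in the same libraries. The 2 members with the smallest absolute log2 fold changes, Peg10 (-0.043) and Peg3 (-0.16), are both paternal. A difference between the classes was not tested.

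Scaled per transcript length, as deposited RPKM (counts divided by transcript length and library size), the control levels ranged from Igf2 (1807 RPKM) through Mest (582), Peg10 (436), Grb10 (268), Gnas (257), Peg3 (180.0), Igf2r (153), Ndn (53.0) and Dlk1 (37.6) to Plagl1 (0.825). No neighbours in this order overlapped in their control libraries. In Isl1_KO the order changed at Grb10, which came after Gnas and Peg3 with a mean of 158 RPKM. There Mest and Peg10 overlapped in their libraries, and so did Peg3 and Grb10. Igf2 remained the highest, at 1506 and 1002 RPKM, and Plagl1 the lowest, at 0.230 and 0.130 RPKM.

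**Figure D2:**
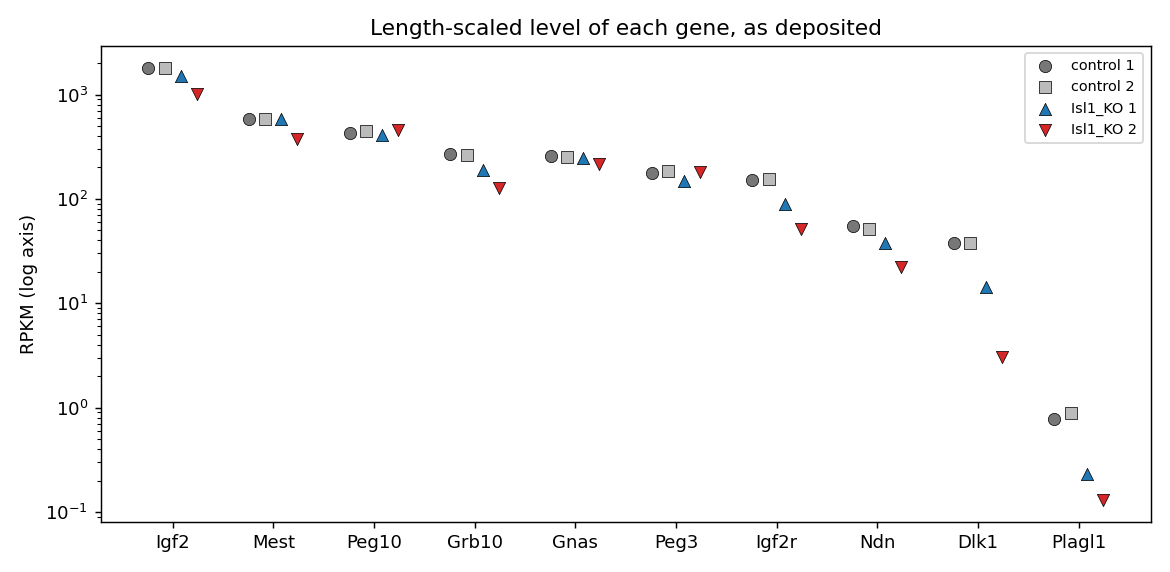
Deposited RPKM of each gene (vertical axis, log scale) in the 4 libraries, with genes ordered by their control mean. Levels span from 1807 RPKM for Igf2 to 0.825 RPKM for Plagl1 in control, and the libraries of Dlk1 and Plagl1 are the most spread.

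The Isl1_KO libraries, 1 from each clone, differed from each other for most members. Isl1_KO 2 lay below Isl1_KO 1 for 8 of the 10, against 48.3% of all tested genes, and the median absolute log2 difference between the clones was 0.67 for the members and 0.19 over all tested genes. The ratio of Isl1_KO 2 to Isl1_KO 1 was lowest for Dlk1, at 0.205 (95% exact interval 0.180 to 0.234). It lay between 0.524 and 0.640 for Plagl1, Igf2r, Ndn, Mest, Grb10 and Igf2, and was 0.840 (0.824 to 0.858) for Gnas. For Peg10 it was 1.07 (1.05 to 1.08) and for Peg3 1.17 (1.15 to 1.20). These intervals cover counting error only, and the interval of Plagl1, 0.249 to 1.05, included 1, so its difference between clones was not detectable at this depth. A log2 difference as low as that of Dlk1 was found for 0.307% of all tested genes, and one as low as that of Igf2 for 7.39%. With 1 library per clone there is no test of the difference between clones, and clone cannot be told apart from culture, sort or library preparation. Isl1 itself was not lower in Isl1_KO 2, at 2.08 CPM against 1.31 CPM in Isl1_KO 1.

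**Figure D3:**
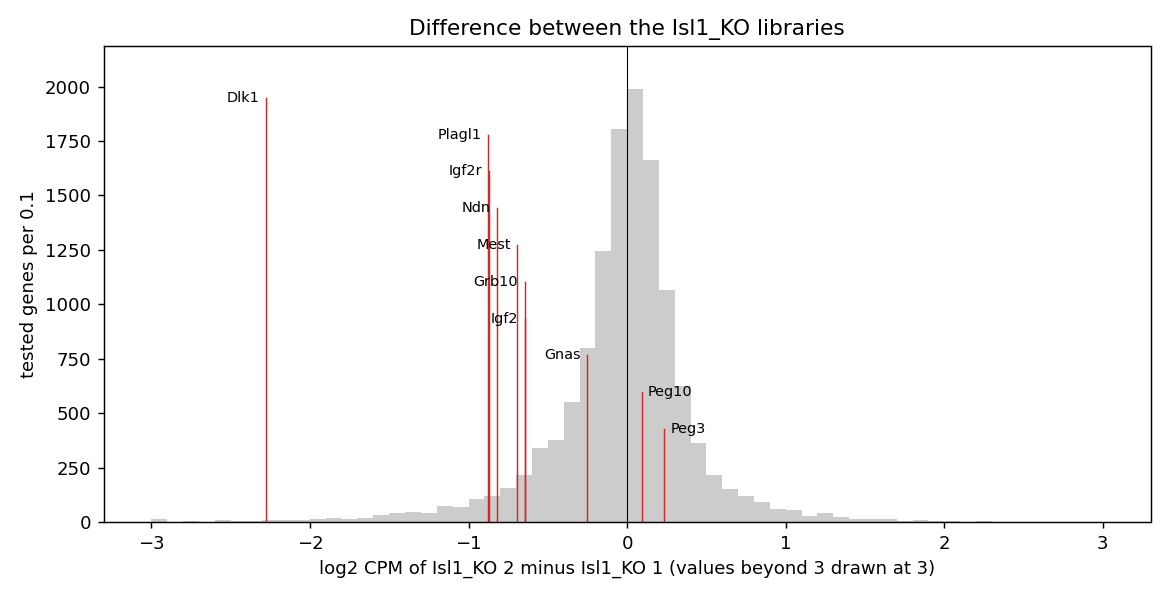
The histogram counts all tested genes by their log2 CPM in Isl1_KO 2 minus that in Isl1_KO 1 (horizontal axis, bins of 0.1). Red lines mark the 10 genes, with line heights set only to keep the names apart, and 8 of the 10 lie on the negative side, Dlk1 the furthest at -2.28.

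Other genes of the same imprinted domains were examined next. Of 9 tested genes listed as paternally expressed, all had log2 fold changes below 0, 8 did not overlap with control, and 0 passed edgeR's adjusted threshold (5 were lower at an unadjusted p under 0.05, and 3 met the study's criteria in DESeq2). Their median was -0.51. Snrpn and Snurf are both among these 9 and among the 8 without overlap. Their counts were nearly equal in control 1 and 2 and Isl1_KO 1 and 2. Snrpn had 702, 780, 1022 and 708 counts, and Snurf had 699, 776, 1018 and 705. They cannot be taken as separate measurements, and how many reads they share was not tested. Of all tested genes, 50.4% had log2 fold changes below 0 and 29% lay below control without overlap. An unadjusted p under 0.05 with a lower level was reached by 12.2%. Magel2, a neighbour of Ndn, was at 23.5 and 25.1 CPM in control and at 15.1 and 7.72 CPM in Isl1_KO 1 and 2 (log2 ratio -1.08 ± 0.312 SE, adjusted p = 0.137). Sgce, which encodes epsilon-sarcoglycan and shares its promoter region with Peg10, was at 66.5 and 64.7 CPM in control and at 50.3 and 26.9 CPM in Isl1_KO. Its log2 ratio to control of -0.76 ± 0.286 (SE, adjusted p = 0.202) stood beside -0.043 for Peg10. Usp29, a neighbour of Peg3, had a log2 fold change of -0.26 (SE 0.139) and Snrpn, which encodes a splicing protein, one of -0.24 (SE 0.132), with edgeR adjusted p of 0.323 and 0.343.

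Of 13 tested domain genes listed as maternally expressed, in some cases in the placenta or the brain only, 12 had log2 fold changes below 0, 5 did not overlap with control and 0 passed the adjusted threshold (5 were lower at an unadjusted p under 0.05, and 2 met the study's criteria). The median was -0.38. The shares of all tested genes were 50.4% below 0, 29% below control without overlap and 12.2% lower at an unadjusted p under 0.05. Zim1, a zinc finger gene beside Peg3, was at 65.4 and 71.7 CPM in control and at 49.9 and 55.3 CPM in Isl1_KO (log2 ratio -0.38 ± 0.0953 SE, adjusted p = 0.109). H19, Airn, Meg3, Rian and Nespas, the noncoding RNAs of these domains, had no transcript entry under these symbols and could not be analysed. Among genes listed as imprinted elsewhere in the genome, 0 of 7 paternally and 0 of 8 maternally expressed ones passed, with medians of 0.0010 and -0.29. The counts do not show from which allele these genes were read in CPCs. Of these, 0 paternally and 2 maternally expressed genes were lower at an unadjusted p under 0.05, and 0 were higher. The study's criteria were met by 1 paternally expressed gene, Sfmbt2, which was higher in Isl1_KO, and by 1 maternally expressed gene, Dcn, which was lower and is also among the fibroblast markers below.

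**Figure D4:**
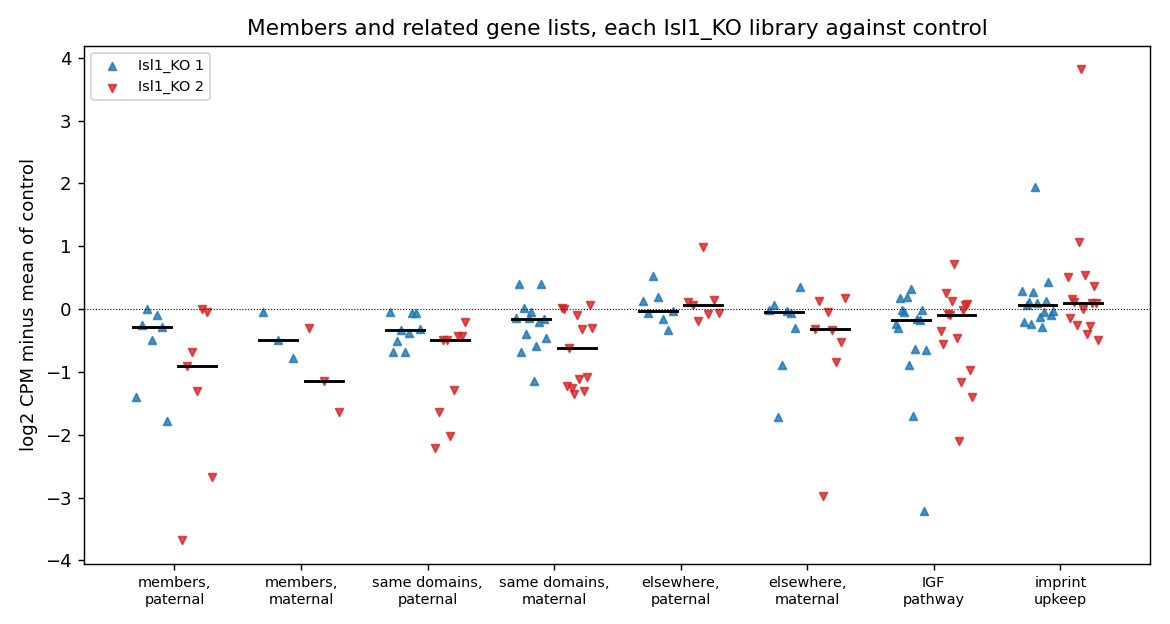
Each point is 1 tested gene in 1 Isl1_KO library, as log2 CPM minus the mean of the control libraries (vertical axis), for the members and the related lists (horizontal axis), with black lines at the medians. The medians of the members are -0.28 and -0.90 (paternal) and -0.49 and -1.14 (maternal) in Isl1_KO 1 and 2, against -0.18 and -0.09 for the IGF pathway and 0.067 and 0.10 for imprint upkeep.

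Tested genes within 1 Mb of each member were summarised as well. Around Igf2r and Plagl1 the medians of the 13 and 10 surrounding genes were 0.032 and -0.020, so the surroundings did not share the log2 fold changes of -1.14 and -2.20. The median was 0.0085 around Gnas and -0.057 around Mest. The most negative medians were those of the 4 genes around Ndn (-0.46), the 4 around Grb10 (-0.44) and the 12 around Peg10 (-0.43), and the 11 genes around Dlk1 had -0.27. In the 10 windows the only genes past the adjusted threshold were Cdkn1c and Phlda2 near Igf2. Cdkn1c, the cell cycle inhibitor of the neighbouring domain, was at 500.5 and 501 CPM in control and at 11.5 and 11.9 CPM in Isl1_KO, almost the same in both clones, where Igf2 was at 10797 and 6906 CPM.

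In the IGF pathway, 1 of 15 tested genes passed, against 2.45% of all tested genes, and 11 had log2 fold changes below 0, against 50.4%. The median of the 15 was -0.072. The gene that passed was Igfbp5, an IGF binding protein of the extracellular matrix, whose mean of 727 ± 5.73 CPM in control fell to 197 ± 38.5 CPM (mean and SD of 2 libraries per group). This was a log2 ratio to control of -1.89 ± 0.142 (SE, adjusted p = 0.00825). The signalling receptor Igf1r was at 365 and 367 CPM in control and at 296 and 248 CPM in Isl1_KO (log2 ratio -0.43 ± 0.0994 SE, adjusted p = 0.0964). Igf2bp1, which binds Igf2 mRNA, was at 570.0 and 585 CPM in control and at 656 and 689 CPM in Isl1_KO (log2 ratio 0.22 ± 0.0671 SE, adjusted p = 0.149). Of 15 tested genes that set or keep DNA methylation and imprints, 0 passed edgeR's adjusted threshold, and the median was 0.11. At an unadjusted p under 0.05, 3 of them were lower (Dnmt3a, Tet2 and Arid4b) and 4 were higher (Uhrf1, Dnmt3b, Dnmt3l and Arid4a). Of the 12715 tested genes, 1556 were lower and 1401 were higher at that p. In this list 2 genes met the study's criteria, the methyltransferase gene Dnmt3b and its cofactor gene Dnmt3l, and both were higher. Those criteria were met with a higher level by 218 of the 12715 tested genes. Dnmt3l had few reads, with 1 and 5 counts in control and 17 and 58 counts in Isl1_KO 1 and 2. Dnmt3b was at 96.0 and 96.1 CPM in control and at 116 and 202 CPM in Isl1_KO 1 and 2. Among them Zfp57 was at 104 and 108 CPM in control and at 104 and 75.3 CPM in Isl1_KO, and Trim28, its corepressor, at 853 and 860.2 against 935 and 920.1 CPM.

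Markers of other cells the sort could hold differed between the same libraries. The summed level of 9 fibroblast or feeder markers was 2719 and 2664 CPM in control, 1752 CPM in Isl1_KO 1 and 804 CPM in Isl1_KO 2. Of these, 8 of 9 had log2 fold changes below 0, 8 were lower in Isl1_KO 2 than in Isl1_KO 1, and none was at 0. Past edgeR's adjusted threshold were 0, while 6 were lower at an unadjusted p under 0.05 and 5 met the study's criteria. Of all tested genes, 50.4% had log2 fold changes below 0 and 48.3% were lower in Isl1_KO 2 than in Isl1_KO 1. A lower level passed the adjusted threshold for 1.94% and an unadjusted p under 0.05 for 12.2%. The study's criteria were met with a lower level by 4.57% of 16855 genes. Among the fibroblast or feeder markers, the collagen gene Col3a1 was at 684 and 649 CPM in control and at 429 and 55.4 CPM in Isl1_KO 1 and 2. The sum was highest in the control libraries, lower in Isl1_KO 1 and lowest in Isl1_KO 2. The same order was seen for Igf2, Igf2r, Grb10, Plagl1, Dlk1, Ndn and Gnas. It was also that of the summed cardiomyocyte, cardiac progenitor, endoderm, blood and neural markers. The endothelial and pluripotency sums were lowest in Isl1_KO 1. The summed level of 8 endoderm markers was 69.2 and 67.8 CPM in control and 59.6 and 33.0 CPM in Isl1_KO. The 8 cardiomyocyte markers, of which 7 passed lower, summed to 1826 and 1906 CPM in control and to 99.5 and 57.6 CPM in Isl1_KO. Of the 7 cardiac progenitor markers 5 passed lower, Nkx2-5 among them, so the Isl1_KO cells had low levels of the gene whose reporter was sorted on. The summed levels of 7 endothelial markers were 371 and 375 CPM in control and 332 and 370 CPM in Isl1_KO, with Emcn at 0 in both Isl1_KO libraries. Kdr made up most of this sum, and 5 of the 7 had log2 fold changes below 0, with a median of -0.64 (-0.23 in Isl1_KO 1 and -1.47 in Isl1_KO 2). Of these 7, 0 passed the adjusted threshold, 3 were lower at an unadjusted p under 0.05 and 4 met the study's criteria, all lower. Tek, for example, was at 56.2 and 57.9 CPM in control and at 33.9 and 16.1 CPM in Isl1_KO 1 and 2. Blood markers summed to 515 and 526 CPM in control and 399 and 284 CPM in Isl1_KO, but only 2 of the 7, the embryonic globin genes Hbb-bh1 and Hba-x, had log2 fold changes below 0. The median of the 7 was 0.57, Runx1 passed the threshold and was higher, and Gata1, Tal1 and Itga2b were above control in both Isl1_KO libraries without passing it. Pluripotency markers summed to 50.2 and 51.6 CPM in control and 14.4 and 44.4 CPM in Isl1_KO. Tdgf1 made up most of this sum, at 39.6 and 40.4 CPM in control and 3.31 and 20.7 CPM in Isl1_KO, while 2 of the 4 tested markers, Pou5f1 and Nanog, had log2 fold changes above 0 and the median was 0.29. Neural markers summed to 35.5 and 34.1 CPM against 27.1 and 14.5 CPM, with Neurog1 at 0 in every library. The part of these cells in the levels of the imprinted genes was not tested.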

How the data were processed

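The authors mapped reads to mm9 with STAR (intron length 20 to 500000 bases) and HOMER was used to count reads in exons per RefSeq transcript, ignoring strand although the libraries were stranded. Counts were deposited as unadjusted whole numbers for each transcript, and transcripts of a gene share reads. RPKM values, also deposited, had been computed with edgeR by the authors and were used here only to compare levels between genes. The authors' own comparison in the deposited table holds a normalized mean signal from DESeq2, log2 fold changes with standard errors, a Wald score and p-values, and was not used. Versions used by the authors are not given in the sources used here. Knockdown is the word in the series' design, while the titles, which were followed for groups and replicate numbers, name a knockout. The number of per-sample columns not matched to a sample was 0.

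Of 31507 transcript entries, the one with the highest summed count was kept per symbol, giving 20701 genes. Groups were compared with edgeR 4.0.16 under R 4.3.3 by its two-sided quasi-likelihood test after TMM scaling and filterByExpr, without covariates. P-values of the 12715 genes were adjusted by Benjamini-Hochberg and called under 0.05. The standard error was the log2 fold change divided by the square root of F. DESeq2 1.42.0 and limma 3.58.1 (log2 CPM, prior count 1) were alternatives, as were other scalings, filters, all transcript entries, the replicate number as a block, and leaving out each library. CPM values used effective library sizes, and 3 counts corresponded to 0.341, 0.328, 0.231 and 0.260 CPM in control 1 and 2 and Isl1_KO 1 and 2. Values of each Isl1_KO library against control are log2 CPM with a prior count of 1 minus the control mean. For 1 gene taken alone, exact permutation of 2 against 2 libraries gives a two-sided p of 0.333 at the least. Intervals of ratios between libraries are exact binomial ones at 95% and cover counting error only, since the reads hold no molecular identifiers. Positions of genes come from GENCODE vM1 on NCBIM37, the assembly of mm9, where 91.9% of tested genes were placed, and promoters are from RefSeq on GRCm38.p6. The fits were also run on simulated counts with the same spread in both groups. That run does not check them at the unequal spread of these libraries (1.29% in control and 16.3% in Isl1_KO). Tables and plots were made in Python 3.11.15 (scipy 1.17.1, numpy 2.4.6, pandas 2.3.3; matplotlib 3.10.9).

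The members, gene lists and tests were chosen with earlier results of these data known. Named genes were all members, Isl1, genes of the imprinting and IGF lists past the threshold, defining genes of the marker lists, a set of fixed domain genes (H19, Airn, Meg3, Rian, Sgce, Zim1, Usp29, Snrpn, Magel2 and Nespas, where tested), and the 3 genes nearest in pattern to the member with the largest log2 fold change. Cdkn1c, Phlda2, Copg2, Snurf, Igf1r, Igf2bp1, Zfp57, Trim28, Uhrf1, Dnmt3a, Dnmt3b, Dnmt3l, Tet2, Arid4a, Arid4b, Sfmbt2 and AF085738 were added after their values were seen.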

Additional observations from a re-analysis of the deposited data

How the results depend on the processing

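The count of 1 member past the threshold was 3 in DESeq2 (Plagl1, Grb10 and Ndn), 0 in limma, and ranged from 0 to 8 when one library was left out. The count over all genes was 311, rose to 492 without a filter and to 604 in DESeq2, and ranged from 27 to 6350 when one library was left out. It was 27 and 29 without a control library and 6350 and 4176 without Isl1_KO replicate 1 and 2, where the lone library is assumed to vary like the other group. The log2 ratio of Peg10 was 0.0021 without Isl1_KO replicate 1 and -0.089 without Isl1_KO replicate 2, and that of Mest was -0.69 and 0.0042. The paternal median was -0.90 without Isl1_KO replicate 1 and -0.28 without Isl1_KO replicate 2, against -0.55 with all libraries. The maternal median was -1.14 and -0.49 in these fits, against -0.78. In the other alternatives the paternal median lay between -0.58 and -0.53 and the maternal one between -0.82 and -0.77. Of 120 single results of members, 98 kept direction and side of the threshold and 2 changed sign. In fits with both libraries of each group, Grb10 and Ndn newly passed in DESeq2 and Igf2r with the replicate number as a block. Plagl1 no longer passed in limma. All other changes of side came from fits that left 1 library in a group, which gives no spread for that group. With the replicate number as a block, 2 members passed (Plagl1 and Igf2r), while the deviations of libraries with the same number from their group means had r = 0.0144 across 12715 genes, which are not independent replicates, and the labels give no shared origin. In every alternative the median of all tested genes stayed within 0.1 of 0 (log2). Plagl1 rests on 13 to 75 counts per library, so its values carry the largest counting error of the members.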
